A study of Homo sapiens with 16 samples.

Results

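Long intergenic noncoding RNAs (symbols beginning with LINC) and the host RNAs of microRNAs (symbols of the form MIR followed by a number and ending in HG) were examined in Caco-2 cells, a human colorectal adenocarcinoma line that forms an enterocyte-like layer in culture. The members were the 259 genes of these 2 naming classes, 237 of them LINC genes and 22 microRNA hosts, with 200 or more counts summed over 12 libraries. They were drawn from 2349 symbols of these classes among 61228 rows, of which 961 had no count in the 12 libraries and 1129 had 1 to 199 counts. The members were thus chosen by the total count of each gene, and MIR3142HG, the host of miR-146a, was singled out with its level in the induced cells already known. A gene high in a single table can reach the total through that table alone, and 8 members held over 50% of their counts in the IBD table, 4 in the VOS2 table and 10 in the NOS1 table.

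The cells came from a villus-on-chip study with magnetic actuation. The IBD libraries (n = 4) are labelled as cells given an IBD induction, and the labels state no agent, dose or duration. The series text calls this group IBD-VOS, and no label says whether it was swung gently or strongly. The swing libraries comprise 4 of a physiological and 4 of a pathological swing, in tables named VOS2 and VOS1 (n = 4 each), and no label ties either table to either kind of swing. The NOS1 libraries (n = 4) were taken as the static control because no other table was left for it. All groups are of 1 cell line, and nothing says that replicates came from separate cultures or days, so the p-values cover only variation among these libraries, which may be technical.

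Long intergenic RNAs are transcribed between protein-coding genes, are mostly spliced and polyadenylated like mRNAs, and are often present at low levels. A microRNA host RNA is the primary transcript from which DROSHA cuts a hairpin in the nucleus, before DICER1 trims it to the mature strand. The mature strand pairs with target mRNAs chiefly through its seed, the run of bases 2 to 8. The libraries were made from polyA RNA, so they measured the hosts and not the mature microRNAs.

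The mature strands of the hosts that differed between groups are shown here because they are what each host can give rise to, with the seed in capitals. The sequences are those of RefSeq on GRCh38.p14, and each lies inside the span of its host on the same strand.
miR-146a-5p: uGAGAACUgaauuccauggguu
miR-3142: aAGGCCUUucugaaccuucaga
miR-210-3p: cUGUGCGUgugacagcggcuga
miR-34a-5p: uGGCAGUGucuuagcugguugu
miR-192-5p: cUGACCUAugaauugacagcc
miR-194-5p: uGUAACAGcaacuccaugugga
miR-181a-5p: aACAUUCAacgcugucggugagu
miR-181b-5p: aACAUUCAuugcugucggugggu

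The first 2 are encoded in MIR3142HG on chromosome 5, miR-192-5p and miR-194-5p in MIR194-2HG on chromosome 11, and the last 2 in MIR181A1HG on chromosome 1. Of these 8 strands, miR-181a-5p and miR-181b-5p share a seed, and the other 6 seeds occur once each. In background, miR-146a is induced by NF-kB and represses IRAK1 and TRAF6, adaptors of Toll-like receptor signalling. The strand miR-210 is induced by hypoxia-inducible factors, miR-34a by p53, and miR-192 and miR-194 are abundant in intestinal epithelium.

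Total counts ran from 16307998 to 20609117 in the IBD libraries, from 15078620 to 18865457 in VOS2, from 17537880 to 20021726 in NOS1 and from 21868713 to 28148186 in VOS1. The members took 0.157% to 0.201% of the counts in IBD, 0.165% to 0.180% in VOS2 and 0.155% to 0.181% in NOS1. A floor of 3 counts came to 0.146 to 0.199 CPM in these 12 libraries, for counting error only, where CPM is the count scaled to the total of its library. Summed over 15 Caco-2 enterocyte genes, the level was 10551 to 11572 CPM in IBD, 11220 to 13045 CPM in VOS2 and 9865 to 13174 CPM in NOS1, with CDX1 alone below 1 CPM in every one of the 12. Several libraries stood apart. NOS1 replicates 1 and 4 were high in KRT7, VIM and CD44, and IBD replicates 3 and 4 were high in hypoxia-type genes such as NDRG1.

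Most members were rare. The median of their mean levels over the 12 libraries was 2.97 CPM, 200 of the 259 averaged 1 to 10 CPM, 11 averaged less than 1 CPM and 48 averaged 10 CPM or more. The counts were made over whole gene spans with introns, by the lengths that the deposited counts and FPKM values imply, which for the members had a median of 31198 bp. Just inside the choice lay LINC01002, LINC01885 and LINC01762 with 202, 203 and 205 counts, and just outside it LINC03009 and LINC01619 with 198 each and LINC02298 with 199.

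The members with the highest CPM were LINC03061, LINC02672, LINC00511, LINC01559, LINC03057, LINC00205, LINC02747 and LINC00667, with means of 52.96 CPM for the first and 34.6 CPM for the last. Per length the order was another one. By mean FPKM (fragments per kilobase of the counted span, scaled to the library total) LINC02747 came first at 6.21, followed by LINC03061 at 5.96, LINC02038 at 5.83, LINC01963 at 4.44, LINC00205 at 4.03, LINC02967 at 3.68, LINC03057 at 3.66 and LINC00543 at 3.41. LINC00511, with the third highest CPM, is spread over 350379 bp on chromosome 17 and overlaps LINC02003. Of these members only LINC01559 and LINC02672 passed the test in a comparison below.

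Between replicates of a table the members varied about as much as other genes of the same level. Among the 129 members with a mean of 1.63 to 6.54 CPM, the median coefficient of variation was 22.6% in IBD, 19.6% in VOS2 and 20.9% in NOS1. For the 2317 other genes tested in that range of levels it was 21.5% in IBD, 18.5% in VOS2 and 20.5% in NOS1.

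In the IBD libraries against VOS2, 11 members rose and 8 fell at an adjusted p below 0.05 in edgeR's quasi-likelihood test, with Benjamini-Hochberg adjustment over 14773 genes, all 259 members included. That is 7.34% of the members, against 4.56% of all genes tested. By direction, 4.25% of the members rose and 3.09% fell, against 2.32% and 2.24% of all genes. Against NOS1, 14 members rose and 6 fell, 7.72% of the members against 5.81% of all genes, with 2.8% of all genes higher and 3.01% lower. The members' median log2 fold change in IBD was -0.02 with VOS2 as the base and 0.06 with NOS1, beside -0.01 and -0.02 for all genes. MIR3142HG is among the members that rose in both. All 4 IBD libraries lay above all 4 VOS2 libraries for 11 members and below them for 26, 4.25% and 10% of the members against 4.45% and 8.3% of all genes. They lay above all 4 NOS1 libraries for 16 members and below them for 16, 6.18% of the members each, against 4.21% and 6% of all genes. These 2 comparisons share the IBD libraries, and 24 members passed in either of them. Of these, LINC02348, LINC02015 and LINC00322 reached 200 counts only through the table in which they were high, so their calls reuse the counts that chose them. The counts moved with single libraries, and so did those of all genes. Against VOS2, 9 rose and 5 fell without IBD replicate 1 (3.29% of all genes called), 17 and 9 without replicate 2 (6.38%), 6 and 5 without replicate 3 (2.72%) and 6 and 6 without replicate 4 (2.21%). Without VOS2 replicate 1, 5 rose and 7 fell (2.17% of all genes), and 8 and 9 without replicate 2 (3.10%). It was 4 and 7 without replicate 3 (2.44%) and 4 and 5 without replicate 4 (2.10%). Without any 1 of the VOS2 libraries, the members that fell thus outnumbered those that rose. Against NOS1, 22 rose and 9 fell without IBD replicate 2 (7.88% of all genes), 8 and 5 without replicate 3 (2.34%) and 8 and 4 without replicate 4 (2.02%). Without NOS1 replicate 3, 11 rose and 13 fell (8.98% of all genes), and without NOS1 replicate 4, 9 and 4 (2.22%). Without IBD replicates 3 and 4 together, 9 members passed against VOS2 (1.43% of all genes) and 8 against NOS1 (1.00%), and without NOS1 replicates 1 and 4 together 26 (6.07%) and 12 (2.36%). Members of low and of high level were among those that passed.

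**Figure D1:**
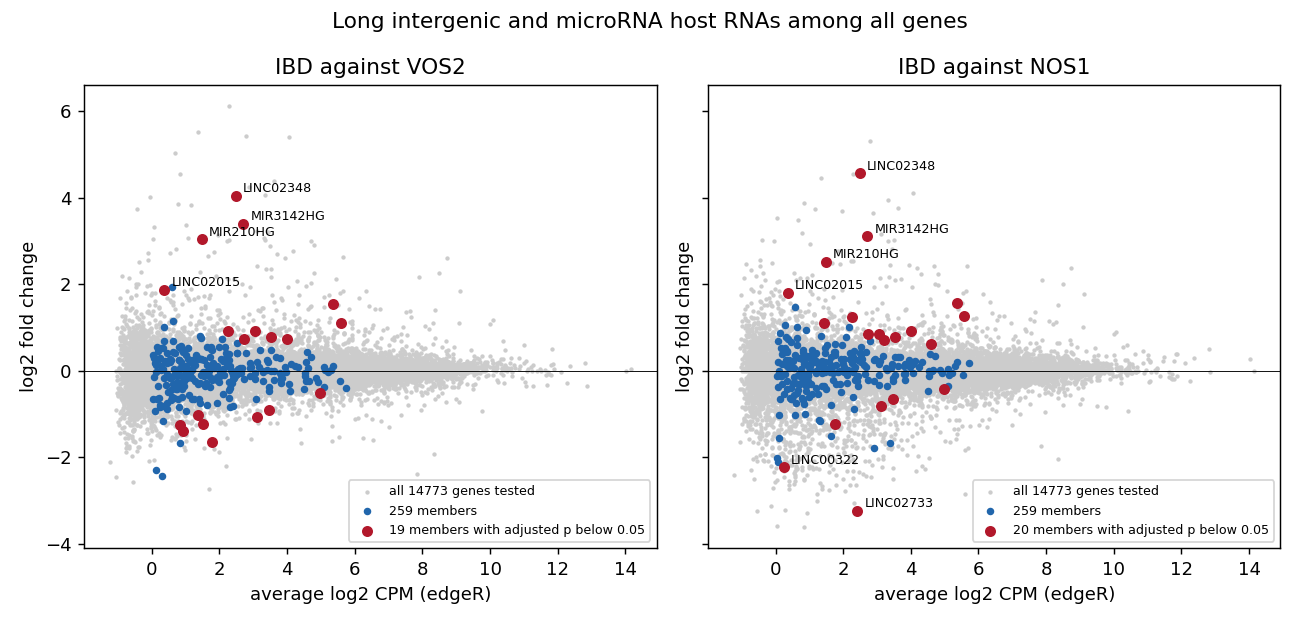
Log2 fold change against the average log2 CPM for IBD against VOS2 (left) and IBD against NOS1 (right). Grey points are all 14773 genes tested, blue points the 259 members, and red points the 19 and 20 members with an adjusted p below 0.05. LINC02348, MIR3142HG, MIR210HG and LINC02015 lie highest among the red points in both panels.

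MIR3142HG spans chr5:160438594-160487426 on the plus strand of hg38, by GENCODE v29, and overlaps no other gene there besides its own microRNAs. It stood at 16.4, 17.7, 14.8 and 14.2 CPM in IBD replicates 1 to 4, against 1.33, 1.61, 2.10 and 0.989 CPM in VOS2 and 0.849, 0.741, 1.34 and 4.46 CPM in NOS1. All 4 IBD libraries lay above all 8 others, and NOS1 replicate 4 lay above the other NOS1 libraries. The mean was 15.8 ± 1.56 CPM in IBD, 1.51 ± 0.466 CPM in VOS2 and 1.85 ± 1.76 CPM in NOS1 (SD, n = 4 each), which is 10.5-fold the VOS2 mean and 8.54-fold the NOS1 mean. These levels are a description, since the gene was singled out for them. The reads behind them numbered 232 to 338 per IBD library, against 15 to 37 in VOS2 and 13 to 88 in NOS1.

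The start site of MIR3142HG, as RefSeq places it, lies 29657 bp inside the GENCODE span. Its promoter is shown for the NF-kB circuit described next. Of the 20 genes of that circuit, 9 passed as higher in IBD against VOS2 and 8 against NOS1. That list was chosen with earlier results of these data known, and what drives MIR3142HG was not tested. On GRCh38.p14 the promoter covers chr5:160468001-160468300 on the plus strand. Its capitals mark a match to the kappaB motif, 120 bases before the start site. The motif is written as GGGA, any base and TTTCC, and was searched on both strands.
MIR3142HG promoter: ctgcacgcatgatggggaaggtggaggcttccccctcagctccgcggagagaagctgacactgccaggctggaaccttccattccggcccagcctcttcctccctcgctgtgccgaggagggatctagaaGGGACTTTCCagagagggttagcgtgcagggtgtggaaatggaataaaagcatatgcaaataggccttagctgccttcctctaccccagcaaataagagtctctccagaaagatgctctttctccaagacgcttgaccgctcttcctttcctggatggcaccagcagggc

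The motif occurs in 0.558% of 35116 RefSeq promoters of this length, and in 2 of the 175 members that have an entry. A match of letters is a description and does not show a site in use.

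Of 20 genes of the NF-kB circuit around miR-146a, all tested, 9 rose and none fell in IBD against VOS2, and 8 rose and none fell against NOS1 (edgeR, adjusted p below 0.05). Of all genes tested, 2.32% rose against VOS2 and 2.8% against NOS1, and the list was chosen with earlier results of these data known. The median log2 fold change of the list was 0.85 relative to VOS2 and 0.36 relative to NOS1. Those that rose in both were BIRC3, TNFAIP3, NFKBIA, RELB, ZC3H12A, NFKBIE, TNIP1 and IRAK2, among them inhibitors and deubiquitinases that restrain NF-kB. TNFAIP3 had 110, 148, 133 and 124 CPM in IBD, against 31.1, 30.7, 48.4 and 52.8 CPM in VOS2 and 37.2, 31.0, 30.4 and 55.5 CPM in NOS1. IRAK1 and TRAF6, the targets of miR-146a named above, did not pass in either comparison. IRAK1 had a log2 fold change of -0.12 ± 0.13 (SE) against VOS2 with an adjusted p of 0.670 and of -0.45 ± 0.13 against NOS1 with an adjusted p of 0.0505, and TRAF6 one of 0.08 ± 0.10 against VOS2 and 0.21 ± 0.10 against NOS1. The 10 leukocyte markers summed to 33.5 to 35.4 CPM in IBD, against 18.0 to 20.4 CPM in VOS2 and 18.4 to 19.3 CPM in NOS1, with 7 of them, PTPRC included, below 1 CPM in every one of these 12 libraries. Of the 3 that entered the fit, LYZ rose and CD14 fell in IBD against VOS2, and LYZ and ITGAM rose against NOS1. The part of the leukocyte markers in the result was not tested. Without IBD replicates 3 and 4, 9 genes of the circuit passed against VOS2 and 8 against NOS1. Without NOS1 replicates 1 and 4, 12 and 10 passed, and the median relative to NOS1 was 0.90.

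LINC02015, at chr3:177816865-177899224 on the plus strand, showed a like division between groups at a low level. It had 2.04, 2.23, 2.52 and 2.21 CPM in IBD, against 0.477, 0.595, 0.510 and 0.928 CPM in VOS2 and 0.599, 0.570, 0.671 and 0.761 CPM in NOS1. Every IBD library lay above every other, on 36 to 45 counts each. The mean in IBD was 3.59-fold that in VOS2 and 3.46-fold that in NOS1. These values are a description with no test, since 163 of its 255 counts lay in IBD, and the other 8 libraries alone, at their rate, would have given 138 over 12.

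LINC03004, at chr6:137657998-137763984, lies 103204 bp from TNFAIP3, its nearest protein-coding gene. It had 7.72, 9.59, 5.05 and 5.95 CPM in IBD, against 3.98, 3.75, 3.68 and 3.85 CPM in VOS2 and 3.25, 3.36, 3.15 and 2.33 CPM in NOS1. The groups did not overlap, and IBD replicates 1 and 2 were the highest, unlike for most members that rose. Its log2 fold change was 0.92 ± 0.20 (SE) relative to VOS2 and 1.25 ± 0.20 relative to NOS1, with edgeR adjusted p-values of 0.0169 and 0.00296. The call against VOS2 was lost without VOS2 replicate 1, 3 or 4, where the adjusted p reached at most 0.0527. LINC03004 overlaps LINC02539, so its counts may hold reads of that gene.

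Several members rose mainly in part of the IBD libraries. Among the 14 that rose in either comparison, IBD replicate 3 was the highest IBD library for 11 and IBD replicate 2 the lowest for 10.

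**Figure D2:**
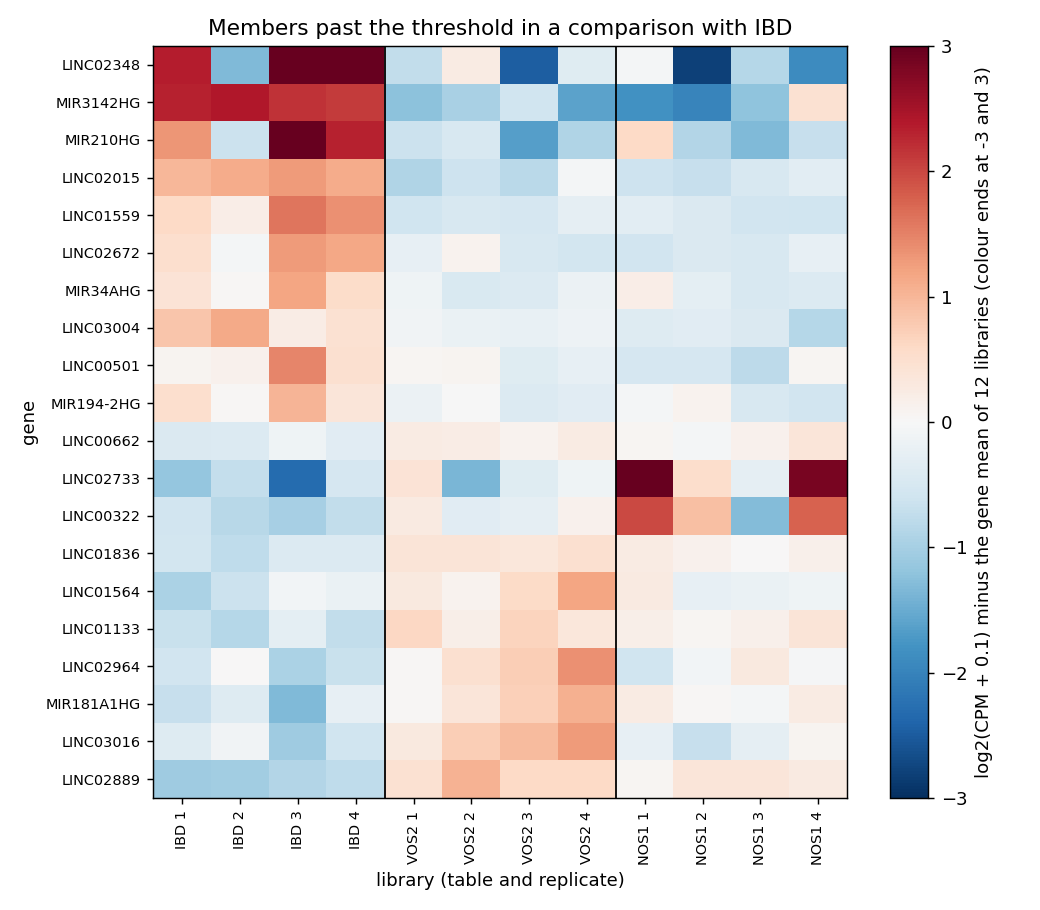
Levels of the 20 named members past the threshold in a comparison with IBD, as log2(CPM + 0.1) minus the mean of the gene over 12 libraries, with libraries in columns and genes ordered by their log2 fold change in IBD against VOS2. MIR3142HG and LINC02015 are red in all 4 IBD libraries, LINC02348 and MIR210HG are red mainly in IBD replicates 1, 3 and 4, and LINC02733 is red in NOS1 replicates 1 and 4.

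MIR210HG, the host of miR-210 at chr11:565660-568457 on the minus strand, had 3.78, 0.892, 12.4 and 7.60 CPM in IBD, against 0.901, 1.011, 0.397 and 0.730 CPM in VOS2 and 2.25, 0.741, 0.516 and 0.862 CPM in NOS1. IBD replicate 2 lay within the range of the other groups, and replicates 1, 3 and 4 lay above all other libraries. The log2 fold change was 3.04 ± 0.64 (SE) relative to VOS2 and 2.51 ± 0.61 relative to NOS1, with edgeR adjusted p-values of 0.0142 and 0.0278. Without IBD replicates 3 and 4 neither call held, and the adjusted p reached 0.237 and 0.425. The call against VOS2 was also lost without VOS2 replicate 3 or 4 (adjusted p at most 0.0567), and that against NOS1 without IBD replicate 3 or 4 or NOS1 replicate 2 or 4 (at most 0.0972).

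The promoter of MIR210HG is printed with the core of the hypoxia-inducible factor motif, ACGTG, in capitals, 170 bases before its start. It covers chr11:568408-568707 on the minus strand of GRCh38.p14.
MIR210HG promoter: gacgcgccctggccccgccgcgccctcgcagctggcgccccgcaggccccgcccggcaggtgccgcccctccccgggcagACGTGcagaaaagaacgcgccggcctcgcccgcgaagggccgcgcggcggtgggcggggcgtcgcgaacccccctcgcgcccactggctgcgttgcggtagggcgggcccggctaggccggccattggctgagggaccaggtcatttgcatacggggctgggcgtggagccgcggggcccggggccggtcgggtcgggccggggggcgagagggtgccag

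This core is common. It was found on either strand in 21.4% of the 35116 promoters and in 50 of the 175 members with an entry.

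Of 22 HIF targets around miR-210, 21 were tested, and 11 rose and none fell in each comparison of IBD (edgeR, adjusted p below 0.05). Of all genes tested, 2.32% rose against VOS2 and 2.8% against NOS1, and this list too was chosen with earlier results known. The median log2 fold change of the list was 0.87 relative to VOS2 and 0.90 relative to NOS1. ANKRD37, LOX, NDRG1, PFKFB4, BNIP3, PDK1, P4HA1, P4HA2 and PFKFB3, which act in matrix crosslinking, glucose use and mitochondrial turnover among other roles, passed in both. Without IBD replicates 3 and 4 none of the 21 passed in either comparison in edgeR, while 7 had an unadjusted p below 0.05 against VOS2 and 4 against NOS1, and the medians were 0.37 and 0.22. Without NOS1 replicates 1 and 4, 12 passed against VOS2 and 4 against NOS1. NDRG1, a stress-induced gene, had 529, 122, 1956 and 1098 CPM in IBD, against 151, 196, 141 and 132 CPM in VOS2 and 316, 146, 130 and 139 CPM in NOS1. IBD replicate 2, at 122 CPM, lay below every VOS2 and NOS1 library.

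LINC02348, listed by GENCODE v29 on the minus strand of chromosome 15 in a shorter form than was counted, had the largest fold change of the members. It had 7.52, 0.502, 36.6 and 14.8 CPM in IBD, against 0.795, 1.67, 0.170 and 1.06 CPM in VOS2 and 1.35, 0.114, 0.722 and 0.304 CPM in NOS1. Replicate 2 of IBD lay inside the range of the other groups on 9 counts, and replicate 3 had 653 counts. The mean was 14.9 ± 15.6 CPM in IBD, 0.923 ± 0.620 CPM in VOS2 and 0.622 ± 0.547 CPM in NOS1 (SD, n = 4 each), 16.1-fold the VOS2 mean and 23.9-fold the NOS1 mean. These values too are a description with no test, since 1058 of its 1169 counts lay in IBD and the other libraries alone, at their rate, would have given 166.5 over 12.

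LINC01559 was among the most abundant members, at chr12:13371089-13387167 on the minus strand, 50775 bp from GRIN2B. It had 52.6, 39.99, 107 and 91.1 CPM in IBD, against 23.2, 25.04, 24.5 and 29.2 CPM in VOS2 and 28.0, 26.1, 23.4 and 23.1 CPM in NOS1. All IBD libraries lay above all others. The mean was 72.6 ± 31.5 CPM in IBD, 25.5 ± 2.58 CPM in VOS2 and 25.1 ± 2.31 CPM in NOS1 (SD, n = 4 each). Its log2 fold change was 1.54 ± 0.23 (SE) relative to VOS2 and 1.56 ± 0.23 relative to NOS1, with edgeR adjusted p-values of 0.00157 and 0.00172. It was past the threshold under each of the 22 alternatives tried, with log2 fold changes of 0.88 to 1.753 against VOS2.

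LINC02672, on chromosome 10 and 200564 bp from MBL2, was abundant too. It had 60.6, 41.4, 104 and 96.1 CPM in IBD, against 36.3, 46.5, 30.5 and 29.4 CPM in VOS2 and 28.7, 31.7, 30.9 and 36.2 CPM in NOS1. IBD replicate 2 lay below VOS2 replicate 2. The log2 fold change was 1.11 ± 0.23 (SE) relative to VOS2 and 1.27 ± 0.23 relative to NOS1, with edgeR adjusted p-values of 0.0144 and 0.00735, and neither call held without IBD replicates 3 and 4. The call against VOS2 was also lost without IBD replicate 4 or VOS2 replicate 3 or 4 (adjusted p at most 0.0583).

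MIR34AHG, the host of miR-34a at chr1:9148011-9198906 on the minus strand, had 10.2, 7.86, 17.6 and 11.2 CPM in IBD, against 7.05, 5.53, 5.72 and 6.76 CPM in VOS2 and 8.84, 6.27, 5.52 and 5.73 CPM in NOS1. Every IBD library was above every VOS2 library, and NOS1 replicate 1 was above IBD replicate 2. Its log2 fold change was 0.93 ± 0.22 (SE) relative to VOS2 and 0.85 ± 0.22 relative to NOS1, with edgeR adjusted p-values of 0.0275 and 0.0362. It overlaps the antisense gene LNCTAM34A, and no source used here states whether strand was counted, so reads of the pair cannot be told apart. GPR157, the nearest protein-coding gene at 18841 bp, also rose, with log2 fold changes of 1.08 ± 0.24 and 0.84 ± 0.23. The calls of MIR34AHG held under 14 of 22 alternatives against VOS2 and 12 of 22 against NOS1. They were lost without IBD replicate 3 or 4, without any 1 of the VOS2 libraries against VOS2, and without VOS2 replicate 1 or NOS1 replicate 2, 3 or 4 against NOS1 (adjusted p at most 0.107). The call of GPR157 against NOS1 held under 5 of 22.

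Of 16 p53 targets around miR-34a 14 were tested, and in each comparison none rose and SESN2 fell, with log2 fold changes of -0.47 ± 0.12 (SE) against both VOS2 and NOS1 and adjusted p-values of 0.0409 and 0.0382 in edgeR. DESeq2 also called 1 gene in each, and at an unadjusted p below 0.05 there were 2 against VOS2 and 5 against NOS1. The median log2 fold change of the list was 0.05 relative to VOS2 and 0.02 relative to NOS1. The call of SESN2 held under 11 and 8 of 22 alternatives.

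MIR194-2HG, the host of miR-192 and miR-194 at chr11:64888458-64893449 on the minus strand, had 15.5, 11.2, 22.3 and 14.0 CPM in IBD, against 9.70, 10.9, 8.16 and 8.56 CPM in VOS2 and 10.5, 11.7, 7.84 and 7.35 CPM in NOS1. The IBD libraries lay above those of VOS2, with replicate 2 close to the highest VOS2 library. Its log2 fold change was 0.78 ± 0.20 (SE) relative to VOS2 and 0.77 ± 0.20 relative to NOS1, with edgeR adjusted p-values of 0.0430 and 0.0390. The calls held under 12 of 22 alternatives against VOS2 and 8 of 22 against NOS1. Both were lost without IBD replicate 1, 3 or 4, that against VOS2 also without any 1 of the VOS2 libraries, and that against NOS1 without VOS2 or NOS1 replicate 1, 3 or 4 (adjusted p at most 0.122). Of 14 Caco-2 enterocyte genes tested, only FABP1, a fatty acid carrier of enterocytes, rose in either comparison and none fell.

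LINC00501 passed against NOS1 only, with a log2 fold change of 1.11 ± 0.31 (SE) and an edgeR adjusted p of 0.0474. It had 2.52, 2.621, 6.68 and 3.37 CPM in IBD, against 2.49, 2.50, 1.81 and 1.99 CPM in VOS2 and 1.65, 1.65, 1.34 and 2.48 CPM in NOS1. Replicate 3 of IBD was far above the others, and the call held under 6 of 22 alternatives. It was lost without IBD replicate 3 or 4 or any 1 of the VOS2 and NOS1 libraries (adjusted p at most 0.148). The other members that rose, 4 in number over both comparisons, lie outside the rule for named genes and are given because they complete the count. LINC01226 of chromosome 1 and LINC01948 of chromosome 5 passed in both, LINC02701 of chromosome 11 and LINC00649 of chromosome 21 against NOS1, with log2 fold changes over NOS1 of 0.92 ± 0.16, 0.85 ± 0.19, 0.72 ± 0.15 and 0.61 ± 0.14 (SE). LINC01226 had 19.8, 15.6, 30.2 and 23.3 CPM in IBD, against 12.6 to 15.6 CPM in VOS2 and 11.1 to 13.0 CPM in NOS1. IBD replicate 3 was the highest and replicate 2 the lowest of its IBD libraries. It overlaps TINAGL1, and LINC00649 overlaps ATP5PO.

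**Figure D3:**
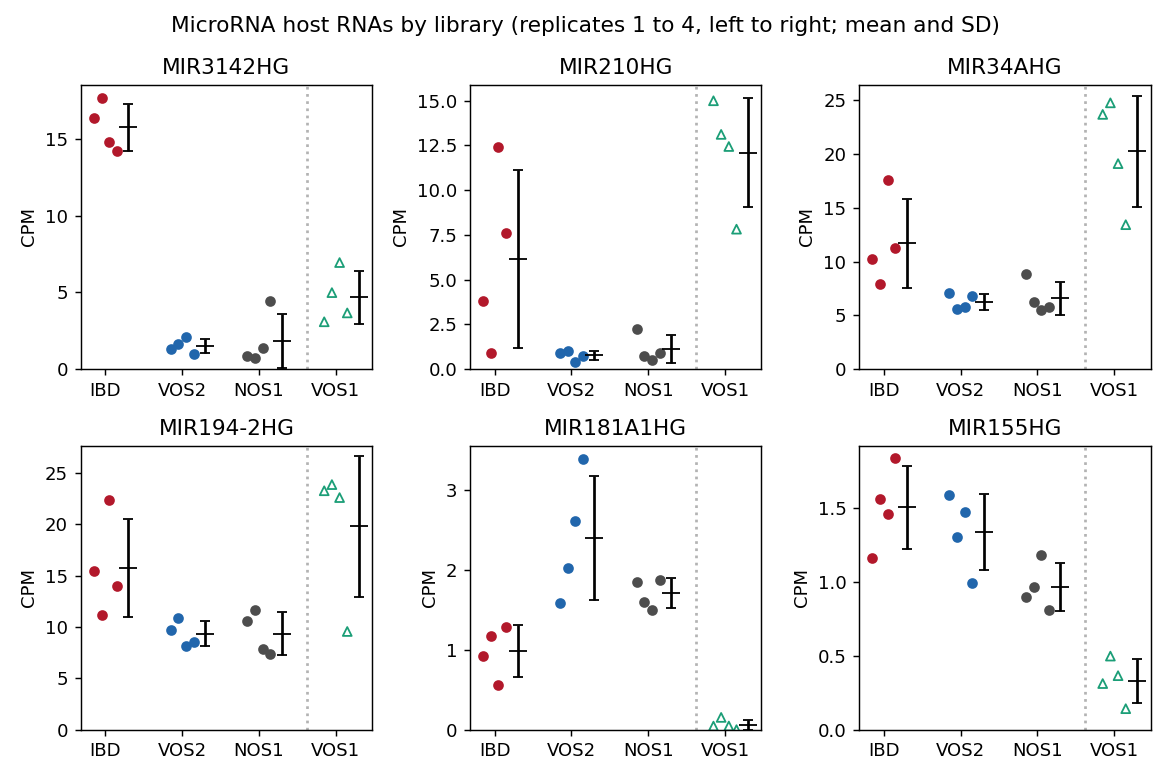
CPM of 6 microRNA host RNAs in each library, by table, with replicates 1 to 4 from left to right and the mean and SD beside them; VOS1 (open triangles) is set apart because it was counted over shorter features. The IBD libraries of MIR3142HG sit between 14.2 and 17.7 CPM, above all VOS2 and NOS1 libraries, and those of MIR210HG between 0.892 and 12.4 CPM.

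Of the members that fell, LINC02889 had the lowest adjusted p. It lies at chr7:17405479-17558909 on the minus strand and overlaps LINC02888 and ENSG00000283321, so its counts may hold reads of these genes. ENSG00000283321 is protein-coding and was not tested. In VOS1 LINC02889 had 112, 157, 113 and 86 counts on 3509 bp in place of 153436 bp. It had 1.36, 1.39, 1.57 and 1.72 CPM in IBD, against 4.13, 6.25, 4.53 and 4.51 CPM in VOS2 and 3.10, 3.88, 3.82 and 3.60 CPM in NOS1. No IBD library reached any other. The mean in IBD was 0.311 of the VOS2 mean, and the log2 fold change was -1.66 ± 0.19 (SE), with an edgeR adjusted p of 2.4e-04. Against NOS1 the log2 fold change was -1.23 ± 0.19, with an adjusted p of 0.00259. The call held under all 22 alternatives in both comparisons.

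AHR, a ligand-activated receptor, lies 59327 bp from LINC02889. It was listed at 0.390 to 1.17 CPM in the 12 libraries but at 31.7 to 48.0 CPM in VOS1, so its counts over whole gene spans are uncertain, and no comparison of the pair was made.

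LINC01836, at chr19:782755-785080 on the plus strand, had 7.23, 6.19, 7.97 and 8.03 CPM in IBD, against 14.0, 13.9, 13.6 and 14.9 CPM in VOS2 and 12.6, 11.6, 10.8 and 11.9 CPM in NOS1. Every IBD library lay below every other. The log2 fold change was -0.91 ± 0.12 (SE) relative to VOS2 and -0.65 ± 0.12 relative to NOS1, with edgeR adjusted p-values of 4.0e-04 and 0.00566. PTBP1, a splicing repressor 11995 bp away, had a log2 fold change of 0.17 ± 0.08 against VOS2 and did not pass.

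LINC01133 is listed by GENCODE v29 at chr1:159961218-159984750 on the plus strand, in a shorter form than was counted. It is known from human colorectal cancer cells as a binder of the splicing factor SRSF6. It had 5.05, 4.41, 6.56 and 4.84 CPM in IBD, against 12.5, 9.10, 12.9 and 10.2 CPM in VOS2 and 9.24, 8.38, 9.03 and 10.7 CPM in NOS1. Every IBD library was below every other. Its log2 fold change was -1.08 ± 0.16 (SE) relative to VOS2 and -0.82 ± 0.16 relative to NOS1, with edgeR adjusted p-values of 0.00136 and 0.0106. The abundant LINC00662 of chromosome 19 fell as well, to a mean of 24.6 ± 2.49 CPM in IBD, against 35.7 ± 1.68 CPM in VOS2 and 33.7 ± 4.26 CPM in NOS1 (SD, n = 4 each). Its log2 fold changes were -0.51 ± 0.10 and -0.43 ± 0.10, with edgeR adjusted p-values of 0.00961 and 0.0241 and no overlap between IBD and the other libraries. The call against NOS1 was lost without IBD replicate 1 or 4 or NOS1 replicate 4 (adjusted p at most 0.105).

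MIR181A1HG was the 1 microRNA host that fell, and it passed against VOS2. It lies on the minus strand of chromosome 1, 50017 bp from PTPRC by a GENCODE v29 span shorter than was counted. It carries miR-181a and miR-181b, which act on lymphocyte receptor thresholds in mice. It had 0.922, 1.17, 0.561 and 1.29 CPM in IBD, against 1.59, 2.02, 2.61 and 3.38 CPM in VOS2 and 1.85, 1.60, 1.496 and 1.88 CPM in NOS1. The IBD libraries lay below all others. The log2 fold change was -1.25 ± 0.29 (SE) with an edgeR adjusted p of 0.0245 against VOS2, and -0.77 ± 0.29 with an adjusted p of 0.134 against NOS1. The call was lost without IBD replicate 1 or 3 or VOS2 replicate 3 or 4 (adjusted p at most 0.0923).

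The 3 LINC genes that passed against VOS2 and not against NOS1 had their highest level in VOS2 replicate 4. LINC03016 had 1.21, 1.51, 0.729 and 1.04 CPM in IBD, against 2.01, 2.80, 3.23 and 4.05 CPM in VOS2, and 0.969 to 1.72 CPM in NOS1. LINC02964 had 1.23 to 2.51 CPM in IBD, against 2.54 to 6.57 CPM in VOS2 and 1.60 to 3.04 CPM in NOS1, and LINC01564 had 1.16 to 2.19 CPM in IBD, against 2.50 to 5.44 CPM in VOS2 and 1.94 to 2.80 CPM in NOS1. In all 3, IBD and NOS1 overlapped, and their log2 fold changes against VOS2 were -1.39 ± 0.28, -1.24 ± 0.31 and -1.04 ± 0.27 (SE), with edgeR adjusted p-values of 0.0104, 0.0331 and 0.0441. The call of LINC01564 held under 10 of 22 alternatives and was lost without any 1 of the IBD libraries, VOS2 replicate 1, 3 or 4 or NOS1 replicate 2 or 4 (adjusted p at most 0.156). That of LINC02964 was lost without IBD replicate 1, 3 or 4 or VOS2 replicate 2, 3 or 4 (at most 0.121), and that of LINC03016 without IBD replicates 3 and 4 together (0.131). GCLC, the catalytic subunit of glutamate-cysteine ligase in glutathione synthesis, fell too. Its log2 fold change against VOS2 was -0.49 ± 0.08 (SE), with an edgeR adjusted p of 0.00334. It lies 11410 bp from LINC01564 by the GENCODE v29 span, which is shorter than the 90553 bp counted. The counted feature may reach or overlap GCLC.

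Over all members that passed, the nearest protein-coding gene could be tested for 15 against VOS2 and 17 against NOS1. It passed the threshold for 4 in each comparison, in the direction of the member for 3 against VOS2 and for 4 against NOS1. Of all genes tested, 4.56% passed against VOS2 and 5.81% against NOS1. Whether members and neighbours changed together was not tested. For LINC01564 and LINC01948, among others, the neighbour was found from a span shorter than was counted. The exception was GRIN2B, a glutamate receptor subunit that fell beside LINC01559 against VOS2, with a log2 fold change of -0.87 ± 0.21 (SE) and an edgeR adjusted p of 0.0284. Its call held under 14 of 22 alternatives and was lost without IBD replicate 1, 3 or 4 or any 1 of the VOS2 libraries (adjusted p at most 0.104). The 4 against NOS1 were TNFAIP3, which held under all 22, C5orf67 beside LINC01948, which held under 16, SIK1 beside LINC00322, which held under 11, and GPR157, which held under 5. Without NOS1 replicate 1 the calls of SIK1 and GPR157 were lost, and without IBD replicate 3 or 4 or NOS1 replicate 4 that of C5orf67 as well.

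Of the 22 microRNA hosts, 4 rose and 1 fell against VOS2, 18.2% and 4.55% of them beside 2.32% and 2.24% of all genes. Against NOS1 4 rose and none fell, 18.2% and 0% beside 2.8% and 3.01% of all genes, and MIR3142HG, singled out for its level, is 1 of the 4 in both. The median log2 fold change of the hosts was -0.06 relative to VOS2 and 0.01 relative to NOS1. The other 17 did not pass in either comparison. MIR4435-2HG, the most abundant host, is also known as MORRBID and sets the lifespan of myeloid cells in mice. It had 20.1, 21.2, 14.5 and 16.1 CPM in IBD, against 22.8, 23.6, 25.8 and 26.3 CPM in VOS2 and 32.3, 20.6, 19.6 and 29.7 CPM in NOS1. Its IBD libraries lay below those of VOS2, but its log2 fold change of -0.43 ± 0.16 (SE) had an edgeR adjusted p of 0.143, and it overlaps BCL2L11 and ACOXL among other genes.

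MIR155HG, the host of miR-155, an NF-kB-responsive microRNA of activated immune cells, had 1.16, 1.56, 1.46 and 1.84 CPM in IBD, against 1.59, 1.31, 1.47 and 0.995 CPM in VOS2 and 0.899, 0.969, 1.19 and 0.811 CPM in NOS1. The groups overlapped. Its log2 fold change was 0.18 ± 0.25 (SE) against VOS2, with an edgeR adjusted p of 0.756, and 0.66 ± 0.25 against NOS1, with an adjusted p of 0.140.

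MIR222HG, the host of miR-221 and miR-222, averaged 6.90 ± 1.40 CPM in IBD, 5.29 ± 1.19 CPM in VOS2 and 4.83 ± 0.400 CPM in NOS1 (SD, n = 4 each). MIR31HG averaged 0.978 ± 0.245 CPM in IBD, 1.54 ± 0.208 CPM in VOS2 and 1.69 ± 0.367 CPM in NOS1, MIR22HG 1.13 ± 0.315 CPM in IBD, 1.78 ± 0.366 CPM in VOS2 and 1.56 ± 0.319 CPM in NOS1, and MIR503HG 3.42 ± 0.856 CPM in IBD, 2.06 ± 0.675 CPM in VOS2 and 2.43 ± 0.895 CPM in NOS1. None of these differences passed. The hosts MIR1915HG, MIR193BHG, MIR2052HG, MIR29B2CHG, MIR3677HG, MIR3936HG, MIR4453HG, MIR4458HG, MIR4713HG, MIR924HG and MIR100HG did not pass either, with adjusted p-values of 0.126 and above against VOS2 and of 0.146 and above against NOS1.

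The genes that process microRNAs gave no call. Of 14, among them DROSHA, DICER1 and the Argonaute genes, all were tested, and none rose or fell in either comparison of IBD in edgeR or DESeq2. At an unadjusted p below 0.05, 1 passed in each. The median of their log2 fold changes was 0.00 for VOS2 as the base and -0.05 for NOS1.

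In VOS2 against NOS1 no member and none of the 14773 genes passed in edgeR (0% called), while DESeq2 called 1 member. Without NOS1 replicate 3, 8 members passed, 1 higher and 7 lower, beside 15 genes higher and 361 lower in all. At an unadjusted p below 0.05, 37 members passed, 14.3% of them, against 9.86% of all genes. All 4 VOS2 libraries lay above all 4 NOS1 libraries for 12 members, 4.63% of them against 2.82% of all genes, and below for none, against 1.76%. The median log2 fold change of the members was 0.09, and that of all genes was 0.00. For the 5 hosts that differed in an IBD comparison, the log2 fold changes of VOS2 against NOS1 were -0.30 ± 0.45 (SE) for MIR3142HG, -0.52 ± 0.69 for MIR210HG, -0.07 ± 0.22 for MIR34AHG, -0.01 ± 0.21 for MIR194-2HG and 0.48 ± 0.28 for MIR181A1HG, each with an adjusted p of 0.621 or more.

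The spread within NOS1 bears on both comparisons with it. In NOS1 replicate 1, 9 members stood at 4 times their 12-library median or more, a rule that uses these levels, and in each of the 9 NOS1 replicate 4 was the second highest of the 12 libraries. They were LINC02733, LINC03078, LINC02477, LINC02582, LINC01989, LINC00472, LINC00958, LINC01885 and LINC00322. LINC02582, on chromosome 18, had 3.65 to 9.14 CPM in IBD and 2.38 to 7.43 CPM in VOS2, against 50.2, 5.30, 1.754 and 22.3 CPM in NOS1. LINC00958, on chromosome 11, had 2.47 to 5.35 CPM in IBD and 1.43 to 5.46 CPM in VOS2, against 26.9, 4.90, 2.01 and 22.6 CPM in NOS1. For both genes NOS1 replicates 2 and 3 lay in or below the range of the other groups, whereas for LINC02733, LINC02477 and LINC00322 NOS1 replicate 2 lay above every IBD and VOS2 library.

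KRT7, VIM and CD44, genes of other epithelial or mesenchymal cells, summed to 58.9 to 130 CPM in IBD, against 25.6 to 64.8 CPM in VOS2 and 34.8 to 413 CPM in NOS1, and KRT7 had 263, 59.2, 22.3 and 221 CPM in NOS1 replicates 1 to 4. None of the 3 passed in edgeR in a comparison of IBD, and 1 had an unadjusted p below 0.05, against NOS1, where DESeq2 called it. The list of these 3 genes was chosen with earlier results of these data known. Their sharing a peak with the 9 members is therefore a description and no independent evidence. In VOS1 the sum of the 3 was 0.366 to 1.56 CPM, and none of the 9 members exceeded 0.533 CPM there. The part of other cells in these values was not tested, and in bulk RNA fewer cells of a type and less RNA per cell cannot be told apart. Of the markers of other cell types, 5 of 9 fibroblast markers and 4 of 7 endothelial markers were below 1 CPM in all 12 libraries. The 9 fibroblast markers summed to 27.7 to 52.1 CPM in IBD, 34.7 to 44.1 CPM in VOS2 and 31.3 to 45.9 CPM in NOS1. The 7 endothelial markers summed to 18.1 to 26.6, 20.6 to 21.8 and 19.0 to 37.9 CPM in the same order. In VOS1 these sums were 75.3 to 124 CPM for fibroblasts and 10.7 to 16.2 CPM for endothelium.

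Of the 9, LINC02733 and LINC00322 passed as lower in IBD against NOS1. LINC02733 had 1.12, 1.56, 0.449 and 1.84 CPM in IBD, against 22.7, 3.82, 2.17 and 19.5 CPM in NOS1, with a log2 fold change of -3.24 ± 0.66 (SE) and an edgeR adjusted p of 0.0132. LINC00322 had 0.485, 0.390, 0.337 and 0.429 CPM in IBD, against 3.35, 1.54, 0.258 and 2.89 CPM in NOS1. For LINC00322 this is a description with no test, since 156 of its 238 counts lay in NOS1 and the other 8 libraries alone, at their rate, would have given 123 over 12. LINC02733 too was picked for its level in NOS1 replicate 1, and its call was lost without IBD replicates 3 and 4 and without NOS1 replicates 1 and 4, an omission that left 12 members called in place of 20. MIR100HG, the host of miR-100 and miR-125b, had the same order of libraries at a smaller ratio, with 0.673 to 1.53 CPM in IBD and 1.30 to 1.96 CPM in VOS2, against 4.60, 1.31, 0.413 and 3.19 CPM in NOS1.

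**Figure D4:**
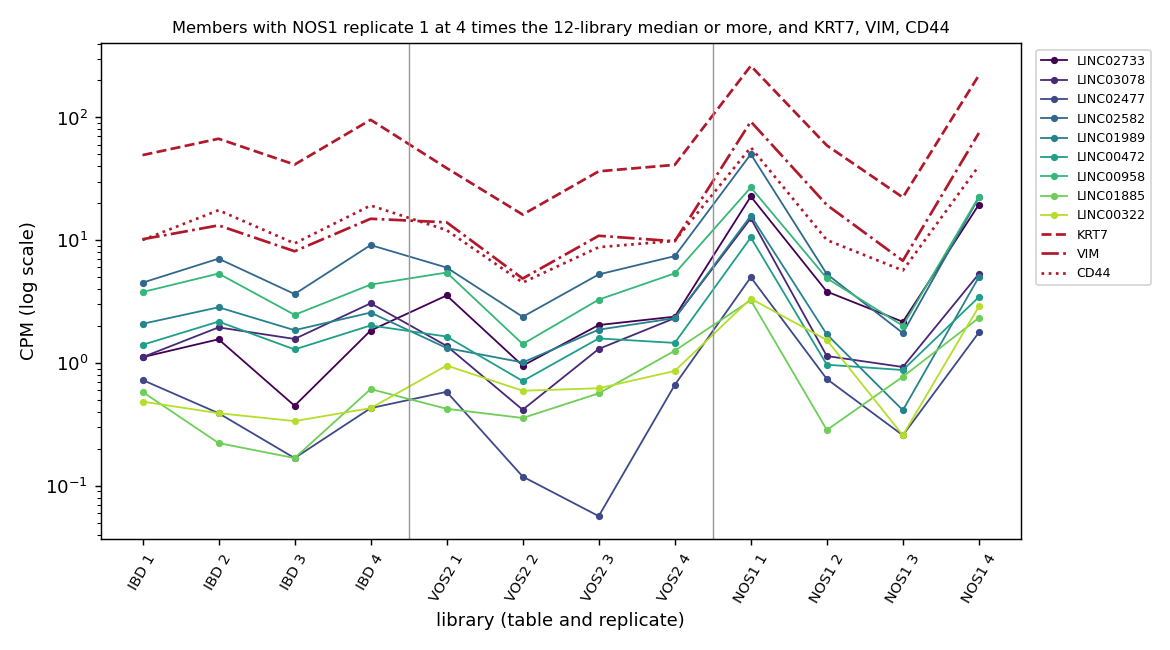
CPM on a log scale across the 12 libraries for the 9 members with NOS1 replicate 1 at 4 times the 12-library median or more (solid lines) and for KRT7, VIM and CD44 (broken lines). All 12 genes peak in NOS1 replicate 1 and are high again in replicate 4, where KRT7 had 221 CPM.

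VOS1 was counted over shorter features and is set apart. The length implied for the members there had a median of 3816 bp, and a median of 11.5% of the length in the other tables. A length could be had for 241 members, of which 223 were shorter in VOS1 and 18 were the same to within 1%. The mean VOS1 level was a median of 54.1% of the 12-library mean over all members, 90.5% for the 18 of the same length and 30.2% for the 70 counted over less than 5% of the length. Levels in VOS1 and in the other tables were therefore not tested against each other.

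**Figure D5:**
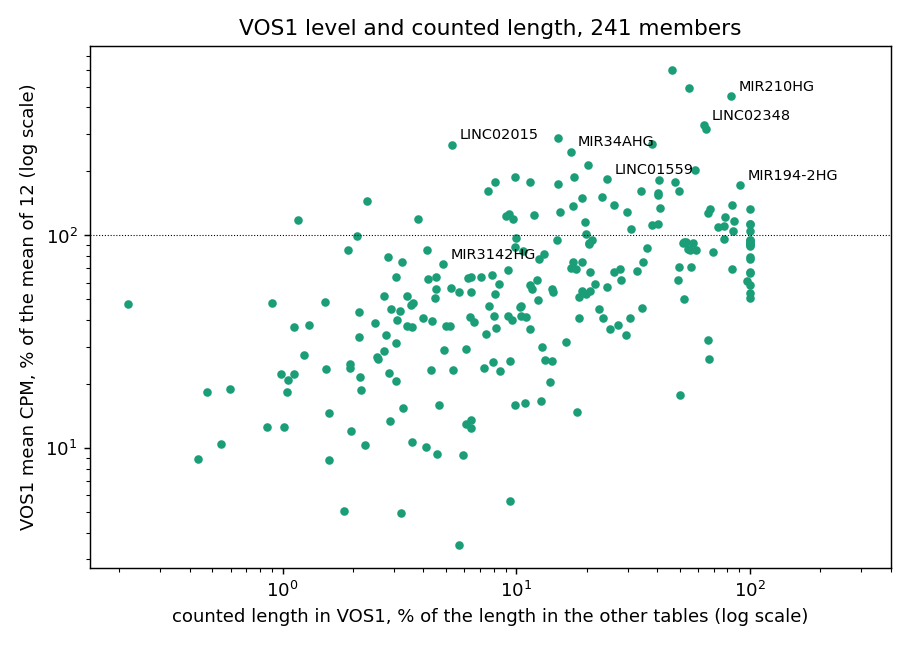
Mean VOS1 CPM as a percentage of the mean of the 12 other libraries, against the counted length in VOS1 as a percentage of that in the other tables, for 241 members on log scales. The dotted line marks 100%, and MIR210HG, LINC02348, LINC02015, MIR34AHG, LINC01559 and MIR194-2HG lie above it.

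Some members that rose in IBD had all 4 VOS1 libraries above all 8 of VOS2 and NOS1 on the shorter features. MIR210HG had 15.0, 13.1, 12.4 and 7.82 CPM in VOS1, and LINC02348 had 18.8, 31.3, 15.6 and 6.64 CPM. LINC01559 had 103, 68.1, 80.4 and 50.5 CPM, MIR34AHG 23.7, 24.8, 19.1 and 13.4 CPM, and LINC02015 4.11, 1.65, 3.70 and 3.13 CPM. Of these values, all but that of LINC02015 in VOS1 replicate 2 lay above the same gene in IBD replicate 2. The 22 HIF targets summed to 2417 to 6794 CPM in IBD, against 2403 to 2752 CPM in VOS2, 2202 to 2951 CPM in NOS1 and 6273 to 9089 CPM in VOS1, and their part in these values was not tested. MIR3142HG had 3.08, 4.99, 6.95 and 3.66 CPM in VOS1, all below the IBD libraries, on a counted length of 2377 bp in place of 48833 bp. LINC03004 had 0.848 to 1.53 CPM there, on 2713 bp in place of 105990 bp.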

How the data were processed

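RNA-seq of polyA RNA was deposited for 16 Caco-2 libraries as raw count tables and as FPKM tables, 1 of each for IBD, VOS2, NOS1 and VOS1. The counts are the authors' deposited whole reads per gene, and the FPKM values are the authors' too. The submitters' processing notes name the genome build hg38, the aligner STAR 2.7.11a, featureCounts 2.0.6, fastp 0.23.4, DESeq2 1.42.0 and FastQC 0.12.1, with no role or order. Neither annotation version nor strand setting was stated in the sources. The length behind each value was computed from counts and FPKM, and for 166 of 259 members it matched the GENCODE v29 or RefSeq span within 1%. No value column was left unused (0).

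CPM was computed per library from its total over all genes. Genes passing edgeR's expression filter by table were tested in 1 quasi-likelihood fit of the 12 IBD, VOS2 and NOS1 libraries with TMM scaling (edgeR 4.0.16, limma 3.58.1, R 4.3.3), and p-values were adjusted by the Benjamini-Hochberg method over all 14773 genes at a threshold of 0.05. The SE of a log2 fold change was taken from the F statistic. The fit was tested on simulated data. VOS1 was left out of this fit because it was counted over shorter features. Columns were matched to samples by title for IBD, the NOS1 table by elimination, and the VOS tables only to the swing samples as a whole. Same-numbered replicates were not treated as pairs, since the correlations of their deviations ran from -0.232 to 0.186 over 12 pairs, 4 of them above 0.1.

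The members, the gene lists and the rules were chosen with earlier results of these data known. Genes were named by rule. They are MIR3142HG, every microRNA host, the members past the threshold (with more than 12 in a comparison, the 8 higher and 8 lower with the largest change), the 8 highest by CPM and by FPKM, up to 8 with NOS1 replicate 1 at 4 times the median or more, and the 3 on each side of the total of 200 counts. Alternatives were another scaling, another filter, DESeq2 1.42.0, all 16 libraries, the 2 tables alone, a replicate block, and leaving out libraries. Of 10 leukocyte, 9 fibroblast and 7 endothelial markers, 3, 4 and 3 were tested; LYZ rose and CD14 fell in IBD against VOS2, LYZ and ITGAM rose against NOS1, LUM fell in both, and no endothelial marker passed (at an unadjusted p below 0.05, 0 against VOS2 and 1 against NOS1, and 0 in DESeq2).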

Additional observations from a re-analysis of the deposited data

Results flagged for a closer look

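Among 221 groups of 4 libraries, taken over the 56 named members and 4 tables, 11 held a library far from the other 3 by Dixon's criterion at 95%, which is 4.98%, and chance flags about 1 in 20. In NOS1 replicate 4, MIR3142HG had 4.46 CPM, against 0.741 to 1.34 CPM in NOS1 replicates 1 to 3, and LINC01963 had 15.8 CPM, against 13.3 to 13.6 CPM. In NOS1 replicate 2, MIR4453HG had 4.33 CPM, against 5.29 to 5.38 CPM, and in IBD replicate 4 it had 4.11 CPM, against 6.12 to 6.52 CPM. In VOS2 replicate 3, LINC00662 had 33.2 CPM, against 36.2 to 36.8 CPM.

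In VOS1 replicate 4, MIR194-2HG had 9.56 CPM, against 22.6 to 23.8 CPM in the other VOS1 libraries, LINC00667 had 21.5 CPM, against 27.2 to 27.5 CPM, and MIR3936HG had 3.13 CPM, against 6.49 to 7.01 CPM. In VOS1 replicate 1, MIR193BHG had 5.67 CPM, against 3.59 to 3.83 CPM. LINC01989 had 0.0446 CPM in VOS1 replicate 1 and LINC02733 had 0.0711 CPM in VOS1 replicate 4, and each was at 0 in the other 3 VOS1 libraries.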

How the results depend on the processing

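In IBD against VOS2, with 19 members called, DESeq2 called 31 of the 259, all 19 among them (7.13% of all genes, against 4.56% in edgeR), and leaving out 1 library gave 9 to 26 (2.10% to 6.38% of all genes). Without IBD replicates 3 and 4 the count was 9 (1.43%), 8 of them among the 19. Of the 19, 12 were among the 145 members whose GENCODE v29 or RefSeq span overlaps no other gene. That span matched the counted length for 166 of 259 members, so some of the 145 may overlap a gene as counted. In IBD against NOS1, 20 members were called (5.81% of all genes), 11 of them among the same 145. The 2 tables alone gave 11 (1.62%), and NOS1 replicates 1 and 4 left out gave 12 (2.36%). IBD replicates 3 and 4 left out gave 8 (1.00%), and leaving out 1 library gave 12 to 31 (2.02% to 8.98% of all genes). In VOS2 against NOS1, with 0 called, no filter on low counts gave 5 (0.937%), DESeq2 gave 1 (0.0406%), and leaving out 1 library gave 0 to 8, with 8 without NOS1 replicate 3 (2.50%). With a replicate block the counts were 13, 18 and 0 (2.83%, 4.01% and 0% of all genes), and same-numbered libraries shared only a number. A total of 100 counts in the rule would give 364 members and one of 400 would give 173. For 224 changes of single genes, the direction being read only where a gene passed, 4487 of 4916 alternative values stayed on their side of the threshold, 398 lost a call, 31 gained one and none reversed. The cause was not tested. The values that stayed include those of changes that had not passed, so their number does not show how steady the calls were. Against NOS1, the call of LINC00501 held under 6 of 22 alternatives, that of GPR157 under 5 and that of MIR194-2HG under 8. LINC01559, LINC01836 and LINC02889 kept both IBD calls under all 22 alternatives.

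At 1 CPM a library held 15.1 to 20.6 reads, which limits the rarest members. Overlapping genes were counted without a stated strand setting, 114 of the 259 members overlap another gene, and mature microRNAs were not measured. No label ties a VOS table to a swing or names the inducing agent.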

Other observations

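A few members stood high in 1 library, at 4 times their 12-library median or more, a list made after the values were seen. In VOS2 replicate 4, LINC02757 of chromosome 11 had 8.42 CPM, against 0.152 to 1.87 CPM in the other 11 libraries of IBD, VOS2 and NOS1. LINC02154 of chromosome X had 8.49 CPM there, against 0.393 to 2.95 CPM in the others, and LINC01234 of chromosome 12 had 3.85 CPM, against 0.714 to 1.98 CPM. All 3 were second highest in VOS2 replicate 3, and none exceeded 0.307 CPM in VOS1.

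LINC00955 of chromosome 4 had 1.41, 0.446, 4.88 and 3.56 CPM in IBD, against 0.340 to 1.06 CPM in VOS2, 0.406 to 1.60 CPM in NOS1 and 2.17 to 6.03 CPM in VOS1. IBD replicates 3 and 4 were the highest of the 12 libraries.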
